A study of Arabidopsis thaliana with 3 samples.

Results

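The 31 genes described here are carried by the plastid genome of Arabidopsis thaliana and serve its ribosome, its RNA polymerase and other functions. They comprise 4 genes of the plastid RNA polymerase (rpoA, rpoB, rpoC1 and rpoC2), 9 of the large and 10 of the small ribosomal subunit, and 8 others (clpP, accD, matK, ccsA, ycf1, ycf2, ycf3 and ycf4). They were chosen by gene symbol and plastid locus tag, and all 31 listed genes had a probe set, of 13365 genes measured in all. Another 5 probe sets naming mitochondrial genes of the same symbols were left out. Whole seedlings aged 2 weeks were compared in 3 groups with 1 ATH1 array each: wild type and transgenic plants that overexpress either DRB2 or DRB3. DRB genes encode proteins that bind double-stranded RNA. The promoter of the transgenes, the number of lines and the number of seedlings behind each array are not stated in the labels.

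Plastids keep a small bacterial-type genome with its own transcription and translation. A polymerase whose core subunits come from the rpo genes transcribes mainly photosynthesis genes, while a phage-type polymerase encoded in the nucleus transcribes others, the rpoB row and accD among them. The plastid ribosome resembles that of bacteria, and its proteins are encoded partly in the plastid and partly in the nucleus. Most plastid transcripts lack long poly(A) tails, so an array protocol that starts from such tails may read them incompletely.

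A MAS5 intensity is the brightness of a probe set on a linear scale. Values under a floor of 109 intensity units were raised to it before a log2 ratio was taken, so a ratio with 1 value under the floor is a bound. The words rose and fell are kept for floored values at least 2-fold apart. With 1 array per group no value has an error and no difference was tested; the small number of arrays limits precision throughout. Of the 31 genes, 28 were above the floor on all arrays, rps14 was above it in wild type alone, and rpoB and ycf2 were under it throughout. Shoot and root contents of the seedlings could be checked on few markers, which were sought by symbol, and 8794 of 22810 probe sets were unnamed here. The Rubisco activase gene RCA, the single shoot marker of 10 found, read 33718 on the wild-type array, 29895 on that of the DRB2 overexpressor and 21690 on that of the DRB3 overexpressor. The 3 root markers found of 8 summed to 19585, 21750 and 22488 in the same order, nearly all of it PYK10. The root-hair expansin gene EXPA18 read 184, 278 and 439, and EXPA7 read 52.1, 95.1 and 158, above the floor in the DRB3 overexpressor alone. PYK10 read 19349, 21376 and 21891, so PYK10 and EXPA18 were lowest in wild type and highest in the DRB3 overexpressor. EXPA7 was highest in the DRB3 overexpressor and cannot be ranked between the other 2 arrays. Fewer green cells and less plastid RNA per cell cannot be told apart in whole seedlings, and the part of tissue make-up in the results was not tested.

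The polymerase genes were brightest on the wild-type array wherever they could be measured. The gene rpoA, for the alpha subunit on which the enzyme assembles, read 17646 on the wild-type array, 14025 on that of the DRB2 overexpressor and 11863 on that of the DRB3 overexpressor. For rpoC1, which encodes the beta-prime subunit, the readings were 3683, 2112 and 2718 in the same order. The gene rpoC2, for the beta-double-prime subunit, gave 1337, 678 and 1050. The DRB2 overexpressor was thus lowest for rpoC1 and rpoC2 and the DRB3 overexpressor for rpoA. Against wild type the DRB2 overexpressor was 1.26-fold lower for rpoA, 1.74-fold lower for rpoC1 and 1.97-fold lower for rpoC2, the last just short of the 2-fold threshold. The DRB3 overexpressor was 1.49-fold, 1.36-fold and 1.27-fold lower for the same genes. The probe set of rpoB, for the beta subunit, read 37.6, 40.1 and 26.2, all under the floor, and gives no ratio.

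**Figure D1:**
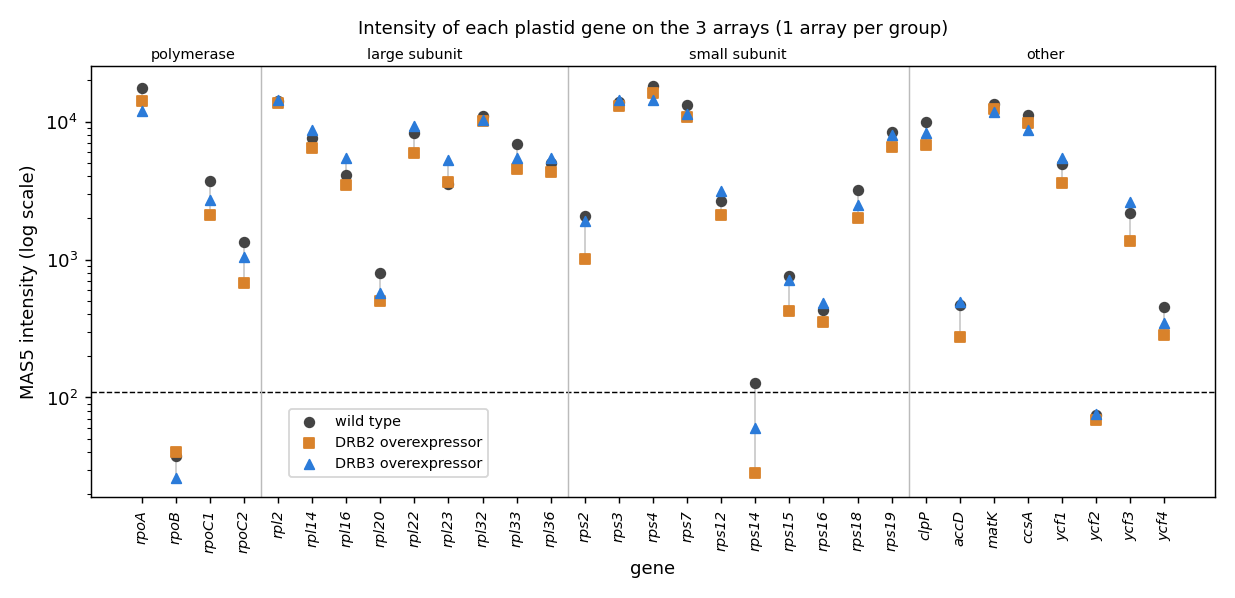
MAS5 intensity on a log axis for each of the 31 plastid genes, 1 point per array (circle, wild type; square, DRB2 overexpressor; triangle, DRB3 overexpressor), grouped by role. The dashed line is the floor of 109 intensity units, which rpoB and ycf2 stay under on all 3 arrays; the square is the lowest point for 24 of the other 29 genes.

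Among large-subunit genes the DRB3 overexpressor was often the brightest array. The gene rpl23, whose bacterial counterpart sits at the exit of the peptide tunnel, read 3518 on the wild-type array, 3661 on that of the DRB2 overexpressor and 5244 on that of the DRB3 overexpressor, 1.49-fold above wild type. For rpl16 the readings were 4093, 3490 and 5399, with the DRB3 overexpressor 1.32-fold above wild type. The gene rpl14 gave 7653, 6456 and 8735, and rpl22, whose bacterial counterpart lines the tunnel, gave 8216, 5920 and 9248. In these 4 genes the DRB3 overexpressor was highest, and in all but rpl23 the DRB2 overexpressor was lowest. A different order held for rpl20, which read 804, 496 and 575, and for rpl33, a subunit that tobacco needs mainly in the cold, which read 6924, 4517 and 5427. Both were brightest in wild type; the DRB2 overexpressor readings were 1.62-fold and 1.53-fold lower. Among the 3 remaining genes the widest gap to wild type was the 1.15-fold of rpl36 in the DRB2 overexpressor. Both rpl36 and rpl2 were again highest in the DRB3 overexpressor and lowest in the DRB2 overexpressor. rpl36 read 4974, 4314 and 5475, rpl32 read 10898, 10148 and 10203, and rpl2, whose bacterial counterpart lies near the peptidyl transferase centre, read 14042, 13583 and 14293.

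The small-subunit genes held the single fall of the set at this floor. The gene rps2 read 2079 on the wild-type array, 1004 on that of the DRB2 overexpressor and 1887 on that of the DRB3 overexpressor, and so fell 2.07-fold in the DRB2 overexpressor and had a log2 ratio of -0.14 to wild type in the DRB3 overexpressor. Among the small-subunit genes above the floor on all arrays the next widest gap to wild type was that of rps15, at 753, 424 and 713, which was 1.78-fold lower in the DRB2 overexpressor. For rps18 the readings were 3179, 2015 and 2489, 1.58-fold lower in the DRB2 overexpressor and 1.28-fold lower in the DRB3 overexpressor. All 3 genes were lowest in the DRB2 overexpressor, and rps2 and rps15 in the DRB3 overexpressor lay close to wild type. The gene rps14 read 127, 28.3 and 59.8; both overexpressors were under the floor, so it was at least 1.17-fold lower in each and cannot be ranked among the others. With the floor at percentile 20 it was 4.51-fold lower in the DRB2 and 2.13-fold lower in the DRB3 overexpressor.

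Other small-subunit genes lay nearer to each other on the 3 arrays. rps4, whose counterpart in Escherichia coli starts the assembly of the subunit, read 18131, 16188 and 14315, lowest in the DRB3 overexpressor. rps3 read 13954, 13044 and 14263, and rps7, another early assembly protein in Escherichia coli, read 13142, 10838 and 11341. Among these 3 genes the widest gap to wild type was the 1.27-fold of rps4 in the DRB3 overexpressor. rps19 read 8404, 6518 and 7924, 1.29-fold lower in the DRB2 overexpressor, and rps16 read 429, 350 and 482. The transcript of rps12, whose bacterial counterpart acts in decoding, is joined from separately transcribed pieces, and the gene had 2 probe sets. The brighter read 2652, 2089 and 3126, log2 ratios to wild type of -0.34 and 0.24. The dimmer read 194, 183 and 255, with log2 ratios of -0.08 and 0.40. Both probe sets were lowest in the DRB2 and highest in the DRB3 overexpressor, with gaps of different size.

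Of the 8 genes with other roles, 5 were lowest in the DRB2 overexpressor. clpP, for a catalytic subunit of the Clp protease, read 9907 on the wild-type array, 6707 on that of the DRB2 overexpressor and 8240 on that of the DRB3 overexpressor. accD, for a subunit of the acetyl-CoA carboxylase that feeds fatty acid synthesis, read 468, 276 and 494, 1.70-fold lower in the DRB2 overexpressor and within 1.05-fold of wild type in the DRB3 overexpressor. The photosystem I assembly genes ycf3 and ycf4 read 2163, 1358 and 2612, and 452, 285 and 346. Both were 1.59-fold lower than wild type in the DRB2 overexpressor, but in the DRB3 overexpressor ycf3 was 1.21-fold higher and ycf4 1.31-fold lower. ycf1, linked to protein import, read 4915, 3591 and 5486. Lowest in the DRB3 overexpressor were matK, for an intron maturase, at 13464, 12322 and 11820, and ccsA, which acts in haem attachment to c-type cytochromes, at 11129, 9727 and 8656. The probe set of ycf2 read 74.3, 68.3 and 76.2, under the floor on each array.

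Set against wild type, the DRB2 overexpressor had lower readings for 28 of the 31 genes. The exceptions were rpl23, at a log2 ratio of 0.06, and rpoB and ycf2, which were under the floor. Of all genes above the floor on at least 1 of these 2 arrays, 47.4% had a ratio below 0. One of the 31 genes, rps2, fell at least 2-fold, against 0.412% of all genes, and none rose, against 0.531%. At a lower threshold of 1.5-fold 10 of the 31 were lower, against 2.93% of all genes, and 0 were higher, against 3.39%. The median log2 ratio of the 31 was -0.33, with a range from -1.05 to 0.06, and the median over all genes was 0.00, or 0.02 over those above the floor on at least 1 of the arrays. Genes of 1 compartment measured on 1 pair of arrays are not independent, so these counts describe the arrays and do not test the genotype.

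By role, the median log2 ratio of the DRB2 overexpressor to wild type was -0.57 for the 4 polymerase genes (-0.80 over the 3 above the floor), -0.32 for the 10 small-subunit genes, -0.23 for the 9 large-subunit genes and -0.51 for the 8 others. All 10 small-subunit genes and 8 of 9 large-subunit genes were below 0. The ranges of the roles overlapped: the small-subunit genes ran from -1.05 to -0.10, the large-subunit genes from -0.70 to 0.06 and the 3 measured polymerase genes from -0.98 to -0.33. After centring on the median gene 28 of the 31 were below 0, and after quantile normalization or a loess correction 27 were. The 18 bacterial hybridisation controls, added in fixed amounts before hybridisation as the usual practice, were dimmer on the DRB2 overexpressor array than on the wild-type array by a median 1.36-fold. Their median intensity was 1411 on the wild-type array and 1114 on that of the DRB2 overexpressor, a smaller gap than this median of single ratios. When arrays were scaled on the median log2 intensity of the controls, 15 of the 31 genes were below 0 and 14 above. This alternative was chosen after seeing the data. The counts past a fold threshold, and those of the lowest array, were not redone with this scaling. The medians became 0.00 for the 31 and 0.36 for genes above the floor on all arrays. The sign of some ratios thus changed with this scaling. The 31 were then 0.36 lower in the median than those genes, as against 0.34 lower with the deposited scaling. Scaling multiplies each array by 1 factor, so this gap can move only through values at the floor. Its near constancy is therefore no separate check.

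**Figure D2:**
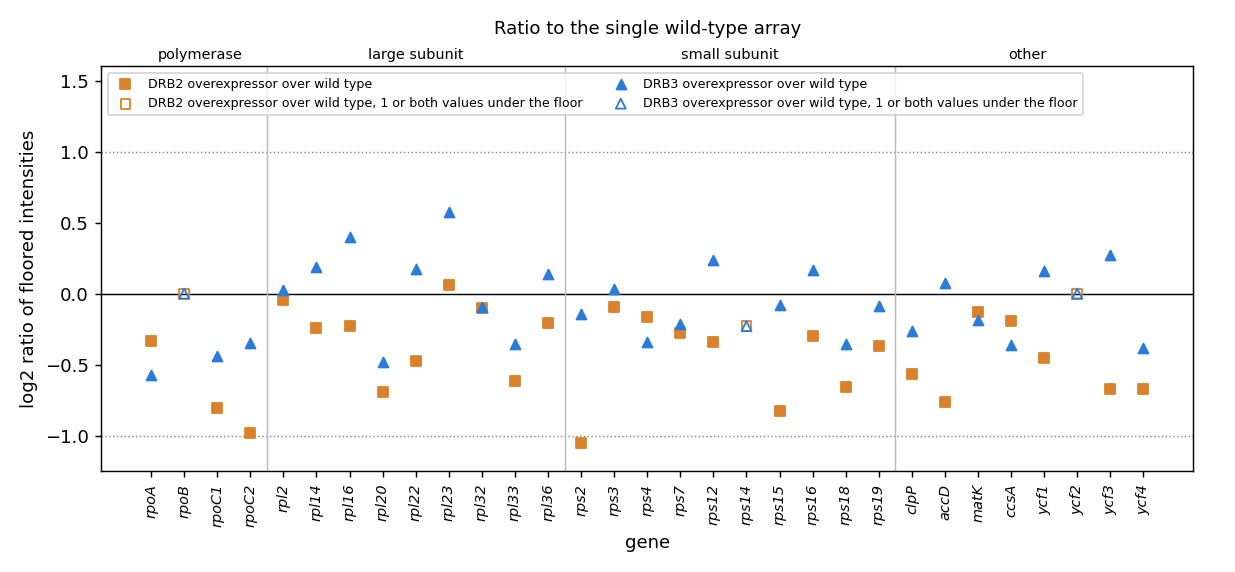
Log2 ratio of floored intensities to the single wild-type array for each of the 31 genes (squares, DRB2 overexpressor; triangles, DRB3 overexpressor; open symbols, 1 or both values under the floor). Dotted lines mark 2-fold; rps2 in the DRB2 overexpressor is the single point beyond one, and the triangles lie on both sides of 0, from -0.57 to 0.58.

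The DRB3 overexpressor differed from wild type in both directions. Of the 31 genes 17 were lower and 12 higher, where 50.1% of all genes above the floor on at least 1 of the 2 arrays were lower. None was at least 2-fold apart, against 2.98% of all genes, and none was 1.5-fold lower or higher, against 5.6% and 5.31%. The median log2 ratio was -0.08, with a range from -0.57 for rpoA to 0.58 for rpl23, and after a loess correction it was 0.00. The polymerase genes had a median of -0.39 with all 3 measured ones below 0. The large-subunit genes had a median of 0.14 with 6 of 9 above 0, the small-subunit genes one of -0.11 with 7 of 10 below 0, and the others one of -0.09. With scaling on the hybridisation controls the small-subunit median was 0.14 and that of the others 0.03, while the polymerase median was -0.14 and the large-subunit median 0.39. Genes above the floor on all arrays then had a median of 0.25, so that of these roles only the large-subunit genes had a median above it. The 31 were 0.14 lower in the median than those genes with this scaling and 0.086 lower with the deposited one, a gap that can move only through values at the floor. Both overexpressors were set against the same wild-type array, so the 2 sets of ratios are not separate evidence.

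Compared directly, the DRB3 overexpressor was above the DRB2 overexpressor for 24 of the 31 genes and below it for 4, rpoA, rps4, ccsA and matK. Of all genes above the floor on at least 1 of these arrays, 47.8% had a ratio above 0. None of the 31 was at least 2-fold apart, against 1.19% of all genes. The widest gaps were those of ycf3 (1.92-fold), rps2 (1.88-fold), accD (1.79-fold) and rps15 (1.68-fold), and 8 of the 31 were at least 1.5-fold higher, against 2.92% of all genes. The median log2 ratio was 0.30; it was 0.34 for the large-subunit genes, all 9 above 0, 0.29 for the small-subunit genes, 0.18 for the 4 polymerase genes (0.36 over the 3 above the floor) and 0.29 for the others. After centring on the median gene 1 of the 9 large-subunit genes was below 0, and with scaling on the hybridisation controls 2 were. Over the 3 arrays together, the DRB2 overexpressor held the lowest reading for 24 of the 29 genes above the floor somewhere, against 26.0% of all such genes. It held the highest reading for 0, against 31.2%. These counts and shares rank readings without the floor. The 24 include rps14, which was under the floor in both overexpressors.

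Several plastid genes are transcribed together, and their order on the genome was used to see whether neighbours had like ratios. Neighbours were taken by position alone, without regard to strand, so they need not share a transcript. The genes rps2, rpoC2, rpoC1 and rpoB stand side by side, and the 3 measured had log2 ratios to wild type of -1.05, -0.98 and -0.80 in the DRB2 overexpressor. In the DRB3 overexpressor these were -0.14, -0.35 and -0.44. The adjoining genes rpl33, rps18 and rpl20 had ratios of -0.62, -0.66 and -0.70 in the DRB2 overexpressor, and those in the DRB3 overexpressor were -0.35, -0.35 and -0.48. In the cluster that runs from rpl23 to rpoA, 9 genes were measured. Their ratios in the DRB2 overexpressor ran from -0.47 to 0.06, and in the DRB3 overexpressor from -0.57 for rpoA, at 1 end, to 0.58 for rpl23, at the other. Across all 69 plastid genes above the floor on the 3 arrays, the 60 pairs of direct neighbours differed by a median of 0.30 in the DRB2 overexpressor ratio, and all 2346 pairs by 0.35. For the DRB3 overexpressor ratio the values were 0.36 and 0.35.

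**Figure D3:**
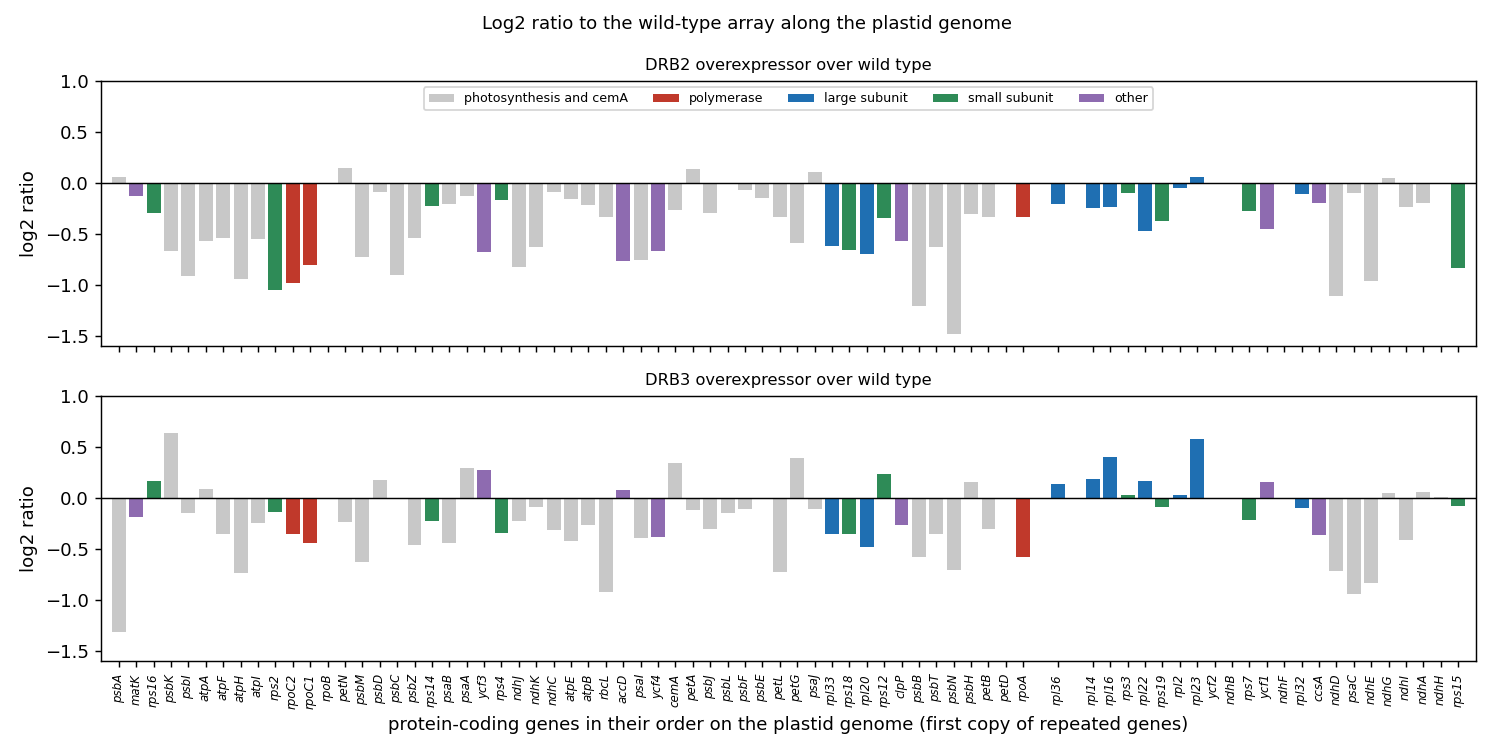
Log2 ratio to wild type of each measured plastid gene in its order along the plastid genome, in the DRB2 overexpressor (top) and the DRB3 overexpressor (bottom), as bars coloured by role with photosynthesis genes in grey and genes under the floor on all arrays left blank. Bars point down for rps2, rpoC2 and rpoC1 and for rpl33, rps18 and rpl20 in both panels, and the genes from rpl36 to rpl23 point up in the lower panel except rps19.

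The size of the difference in the DRB2 overexpressor varied with the brightness of the probe set, which depends on the probes as well as on the transcript. Over the 28 genes above the floor on all arrays, mean log2 intensity and the log2 ratio of the DRB2 overexpressor to wild type had a Pearson r of 0.66 and a Spearman rho of 0.70. Dimmer probe sets thus tended to have lower ratios, although the lowest ratios, those of rps2 and rpoC2, were not at the dimmest probe sets. These points share the same 2 arrays, and the intensities enter both measures. For the DRB3 overexpressor the values were -0.02 and -0.10, and over all 6786 genes above the floor the DRB2 overexpressor values were -0.05 and -0.06. Over the 40 plastid genes for photosynthesis above the floor on all arrays the DRB2 overexpressor values were 0.22 and 0.19. At a mean intensity of at least 8000, a limit chosen after seeing the data, the 9 genes had a median ratio of -0.16 in the DRB2 overexpressor, and all 103 genes that bright had one of -0.07. Below it the 19 genes had a median of -0.62 and all 6683 genes one of 0.01. After a loess correction for brightness the median of the 31 was -0.30. That fit follows the trend of all genes, so it could not remove one found in the 28.

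**Figure D4:**
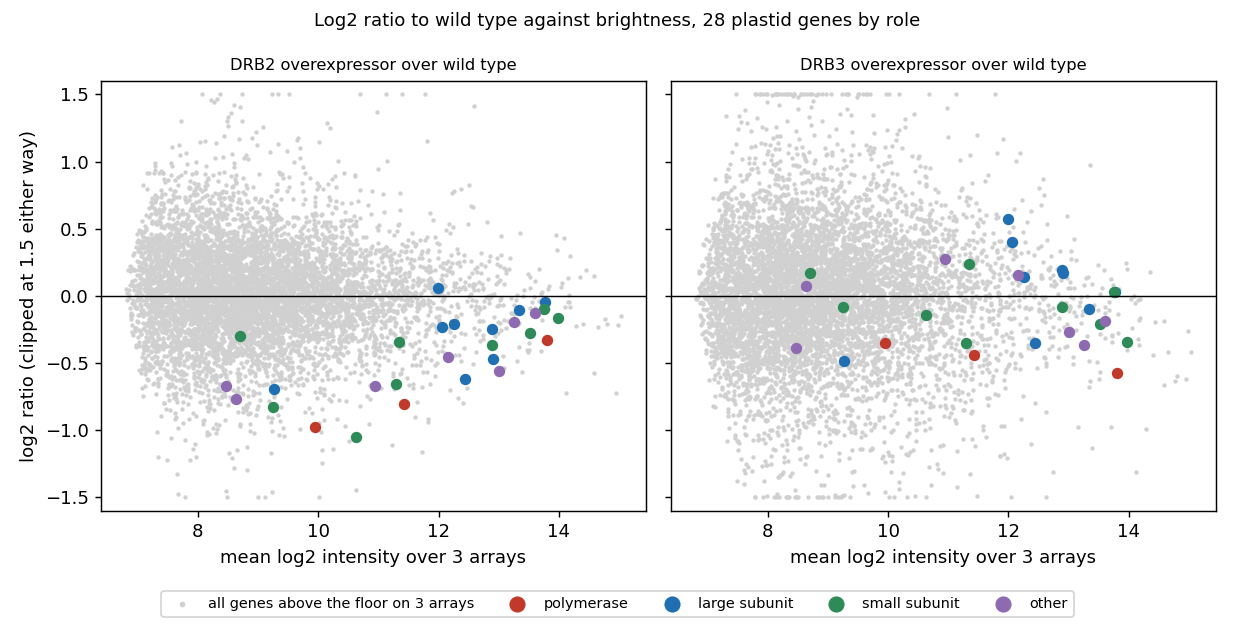
Log2 ratio to wild type against mean log2 intensity over the 3 arrays for the 28 plastid genes above the floor on all arrays, coloured by role, over all 6786 such genes in grey; ratios beyond 1.5 are drawn at 1.5. In the DRB2 overexpressor panel the coloured points below a mean intensity of 8000 spread from -1.05 (rps2) to 0.06 (rpl23) and those from 8000 up lie between -0.56 and -0.05, while in the DRB3 overexpressor panel they lie on both sides of 0.

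The plastid genes for photosynthesis were set beside these for comparison, without a test. The 44 measured had a median log2 ratio to wild type of -0.29 in the DRB2 overexpressor, where the 31 had -0.33, and of -0.24 in the DRB3 overexpressor, where the 31 had -0.08. The DRB3 overexpressor over the DRB2 overexpressor gave 0.09 for the photosynthesis genes and 0.30 for the 31. Of the 10 mitochondrially encoded nad and cox genes, 6 were under the floor on both arrays of each comparison with wild type. The other 4 had a median of -0.37 in the DRB2 and -0.35 in the DRB3 overexpressor.

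Nuclear genes for partners of these proteins were mostly not found or had no name. Measured here means found among the 13365 genes, and the 8794 probe sets unnamed here were not searched. Of 39 loci listed for nuclear-encoded plastid ribosomal proteins, 10 were measured. The list was drawn from general knowledge of locus codes, and the gene tables do not annotate these 10 with a name, so they are given as counts. In the DRB2 overexpressor 8 of the 10 were above wild type and 2 below, with a median log2 ratio of 0.14 and a range from -0.09 to 0.51, while the 19 plastid-encoded ribosomal genes had a median of -0.28. In the DRB3 overexpressor 5 were above and 5 below, with a median of -0.02, while the 19 plastid-encoded had -0.08. None passed 2-fold. Of 15 nuclear Clp protease loci 6 were measured, with medians of 0.02 and -0.09 and none past 2-fold. The 1 with a name, CLPP4, a nuclear-encoded partner of clpP, read 3455, 3745 and 3078. The single measured locus of 21 for plastid transcription was under the floor on all arrays, and 0 of 4 acetyl-CoA carboxylase loci were measured.

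Some control probe sets were also lowest on the DRB2 overexpressor array. The 25S ribosomal RNA control, another transcript without a long poly(A) tail, read 12982 on the wild-type array, 3603 on that of the DRB2 overexpressor and 11338 on that of the DRB3 overexpressor. The 24 poly(A) spike-in probe sets were dimmer than on the wild-type array by a median 4.37-fold for the DRB2 overexpressor and by 1.17-fold for the DRB3 overexpressor. Their median intensity was 223 on the wild-type array, 56.1 on that of the DRB2 overexpressor and 171 on that of the DRB3 overexpressor. The DRB2 overexpressor median was under the floor, so the size of the 4.37-fold gap is uncertain. The ratio of 3′ to 5′ signal is a sign of RNA integrity and is usually higher where RNA is less intact. It was highest in wild type and lowest in the DRB3 overexpressor for each of the 4 control pairs examined. For a GAPDH pair it was 9.31, 5.77 and 3.89 in the order wild type, DRB2 overexpressor and DRB3 overexpressor. The part of these differences in the readings of the 31 genes was not tested.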

How the data were processed

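For each probe set the authors deposited a linear intensity from MAS5, per the submitters' processing notes, with no version or settings stated there. The labels name RNA labelled as biotinylated cRNA and also a Cy3 dye, while the design text of the series is about a different transgene, so groups were taken from each sample's genotype label. The 2% trimmed mean was 500.05 on each array, and values were used as deposited.

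Of 22810 probe sets, 64 controls were left out, 13523 had 1 gene symbol, 493 had several and were not used, and 8794 were unnamed here. Plastid genes with 2 identical entries (6 of the 31) kept their shared symbol. A gene took its brightest probe set. RefSeq (assembly TAIR10.1) gave names and gene order and matched 13295 of 13365 genes. No sequence was available for printing, and no coordinates are given. The floor was the mean over arrays of percentile 40.

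Every member was named, with full values for all 31. Fold and log2 values were computed here from the deposited intensities. No test or p-value is given with 1 sample per group. The 2-fold call was tested on simulated data, with larger changes planted in genes well above the floor. Smaller shifts and the scaling of arrays were not part of that test. Members, lists, floor and alternatives were chosen with earlier results of these data known. The alternatives tried were centring, a pseudocount of 16, floors at percentile 20 and 60, quantile normalization, loess (span 0.3), the mean of probe sets, and 1.5-fold and 3-fold thresholds. The work was done in Python 3.11.15 with pandas 2.3.3 and numpy 2.4.6, loess with statsmodels 0.14.6, correlations with scipy 1.17.1 and plots with matplotlib 3.10.9.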

Additional observations from a re-analysis of the deposited data

How the results depend on the processing

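No paired analysis was possible because each group had 1 array, and no array could be left out. Medians were taken as moved when they shifted by over 0.1 on the log2 scale, and counts when they changed by over 1.5 times. Of 183 recomputed values, 149 did not move. Scaling on the hybridisation controls, chosen after seeing the data, raised the ratios to wild type of genes above the floor and lowered those of the DRB3 over the DRB2 overexpressor. The medians against wild type were then 0.00 for the 31, -0.23 for polymerase, -0.0093 for small-subunit, 0.12 for large-subunit and -0.16 for the other genes in the DRB2 overexpressor, the large-subunit one reversed. In the DRB3 overexpressor they were 0.11, -0.14, 0.14, 0.39 and 0.033, reversed for the 31, the small-subunit and the other genes. For the DRB3 over the DRB2 overexpressor the polymerase median was 0.061 with the floor at percentile 20 and 0.060 with a pseudocount, since rpoB then entered with its own ratio. With the floor at percentile 20 the genes of the 31 at least 2-fold apart numbered 2, 1 and 1 in the DRB2 and DRB3 overexpressors against wild type and the DRB3 over the DRB2 overexpressor, rps14 being the added one in each; a pseudocount gave 2 in the DRB2 overexpressor. At 1.5-fold the count was 10 in the DRB2 overexpressor and 8 in the direct comparison, and at 3-fold 0 in the DRB2 overexpressor. Over all genes the main counts of 126, 398 and 159 became 591, 771 and 569 with the floor at percentile 20, 53, 206 and 62 at percentile 60, 941, 1022 and 871 with a pseudocount, 844, 1458 and 901 at 1.5-fold, and 13, 78 and 21 at 3-fold. The limits are 1 array per group, no detection calls, and 3 of the 31 genes too dim on at least 1 array for more than a bound.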
